A study of Sus scrofa with 6 samples.

Results

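SYCP2 encodes a protein of the meiotic chromosome axis, and it was examined here in cultured pig (Sus scrofa) granulosa cells together with 8 relatives or partners. These are SYCP2L, its paralogue, SYCP3, with which it builds the axis, STAG3, a cohesin subunit of meiosis, and the somatic cohesin subunits STAG1, STAG2, RAD21, SMC1A and SMC3. SYCP2 was chosen because it was lower in every heated library, so its difference between heat and control is given as a description with no test. The other 8 genes were chosen by function. All 9 were found among the 35670 gene identifiers counted, 7 had enough reads to be tested and 14242 identifiers were tested in all.

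Cohesin is a ring of SMC1 and SMC3 closed by a kleisin subunit such as RAD21, with a STAG protein bound to the kleisin, and it holds sister chromatids together and shapes chromatin loops. In meiosis cohesins with the subunits REC8, RAD21L1, SMC1B and STAG3 anchor the loops to an axis of SYCP2 and SYCP3. SYCP1 and the central element proteins then join the axes of paired chromosomes into the synaptonemal complex. Granulosa cells are the somatic cells around the oocyte and divide by mitosis, whereas the oocyte is the cell of the follicle that passes through meiosis.

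Stranded mRNA sequencing was used to measure RNA in primary granulosa cells drawn from small follicles (3 to 6 mm) and grown in flasks to more than 70% confluency. The heat group (n = 3) spent 6 h at 42 °C, while the control group (n = 3) stayed at 37 °C, both under 5% CO2. No genetic change or drug was given to either group. Separate animals or cultures are not stated in the labels, which call the samples biological replicates, so p-values measure only the spread between these samples, which may be technical.

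The library totals lay between 20411952 and 29606378 counts in heat and between 18711440 and 22599356 in control. Libraries of a group were not equally alike. Heat 1 and heat 2 had a Pearson correlation of 0.991 across genes, and control 2 and control 3 one of 0.990 (log2 CPM, genes not being independent replicates). Heat 3 and control 1, the libraries that stood apart, had one of 0.920 with each other. Heat 3 had 0.916 and 0.909 with heat 1 and 2, and control 1 had 0.901 and 0.905 with control 2 and 3. Each of these libraries was thus slightly more like the other than like those of its own group. Of the markers that define granulosa cells, the receptor gene FSHR had 0, 2 and 0 reads in heat 1 to 3 and 6, 49 and 15 reads in control 1 to 3, and the inhibin subunit gene INHA had at most 2 reads in a heat library and 7 in a control library. AMH, its receptor gene AMHR2 and HSD17B1 were low too, with at most 9 reads in any library. Some other markers were well detected. The activin subunit gene INHBA was at 173 ± 16.4 CPM in heat and 264 ± 106 CPM in control. The steroidogenic enzyme gene CYP11A1 was at 65.2 ± 6.62 CPM in heat and 36.4 ± 7.49 CPM in control (SD, n = 3 each for both genes). Of 13 matched granulosa cell markers 8 were tested, and none passed in edgeR (2 at an unadjusted p below 0.05, as were 33.9% of all tested genes). The 8 had a median log2 fold change of 0.91, against 0.05 over all tested genes. Every heat library lay above every control for 2 of them and below for 1, as for 20.9% and 16.8% of all tested genes. DESeq2 and limma-voom each called 1, higher in heat, where 2118 and 1055 of all 14242 genes were called higher. Without control 1 edgeR called 3 of 9 tested higher and 1 lower, where 3021 of all 15407 genes were called higher and 1901 lower. CPM here are read counts scaled to the library total and a TMM factor per library.

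SYCP2 was at 11.2, 13.9 and 12.9 CPM in heat 1 to 3, against 133, 227 and 243 CPM in control 1 to 3. Every heat library lay below every control library, the heat libraries were close to each other, and control 1 was the lowest of the controls. Read counts behind these values were 224, 299 and 422 in heat and 1999, 5198 and 4909 in control. The means were 12.6 ± 1.38 CPM in heat and 201 ± 59.2 CPM in control (SD, n = 3 each). They gave -3.99 ± 0.37 (SE) as the log2 fold change, or 15.9-fold lower in heat, with a 95% interval of -4.86 to -3.13. Neither the SE nor the interval allows for the choice of SYCP2 by this decrease, so they are not a test of it. Counted from the largest decrease, SYCP2 was rank 39 among all 14242 tested genes. It was rank 15 among the 11219 with a mean log2 CPM of at least 1. Both ranks restate the choice of SYCP2 and are not a test. Leaving out any 1 library gave log2 fold changes between -4.24 and -3.87. In bulk samples fewer cells that carry a transcript and less RNA per cell cannot be told apart.

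**Figure D1:**
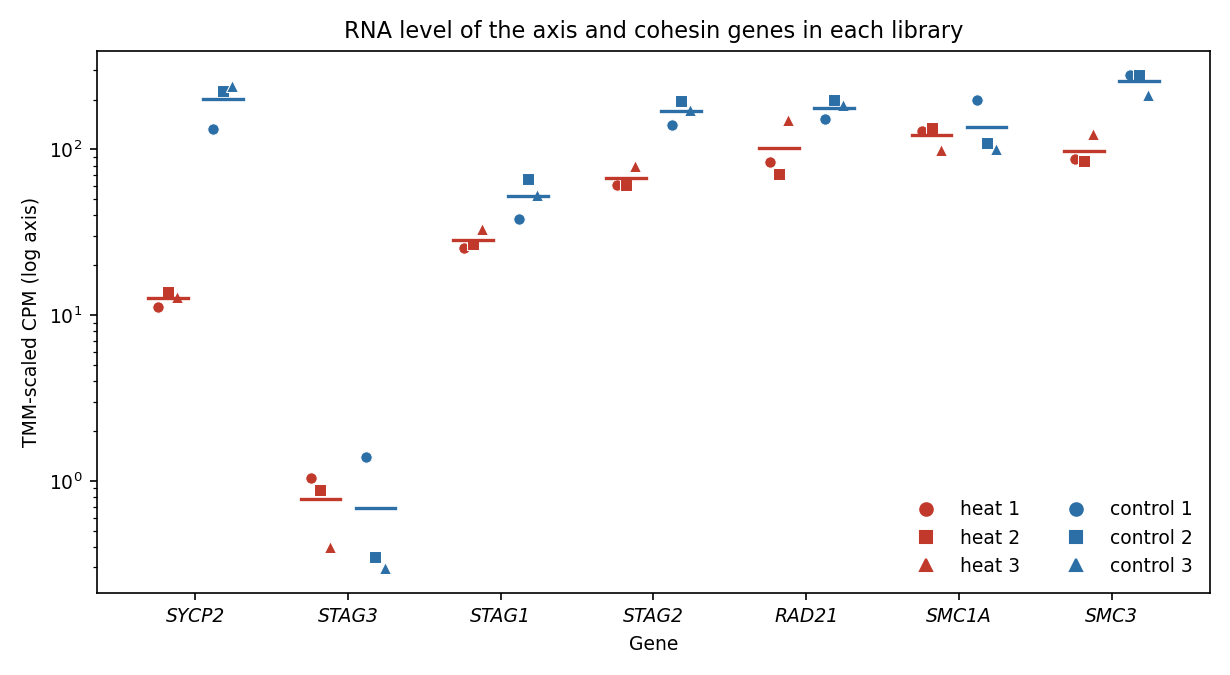
TMM-scaled CPM, on a log axis, of the 7 detected genes in each library. Red symbols are heat libraries, blue symbols control libraries, the symbol shape gives the replicate number and horizontal lines are group means. SYCP2 lay between 11.2 and 13.9 CPM in heat and between 133 and 243 CPM in control, a wider gap than for any other gene drawn. SYCP2 was chosen by this decrease and the other genes by function.

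SYCP2 lies on chromosome 17 at 59875992 to 59962314 (Sscrofa11.1, RefSeq gene of that symbol). The nearest named gene above it, PPP1R3D, which encodes a glycogen-targeting subunit of protein phosphatase 1, starts 1246 bases beyond its end. PPP1R3D was at 5.78, 5.29 and 5.40 CPM in heat 1 to 3, against 4.40, 5.76 and 5.35 CPM in control 1 to 3, with overlapping groups (log2 fold change 0.09 ± 0.31, edgeR adjusted p = 0.862). The nearest named gene below it, PHACTR3, had at most 4 reads in any library. A long noncoding RNA gene, LOC110257473, shares 339 bases with one end of SYCP2. It was not matched to a counted identifier, and the sources used here do not say whether the counting used strand, so reads of that stretch are uncertain.

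The close partners of SYCP2 on the meiotic axis had few or no reads. SYCP3 (chromosome 5, 82492744 to 82501068) and SYCP2L (chromosome 7, 7574153 to 7647874), which in the mouse is known from oocytes, had 0 reads in all 6 libraries. At these depths a count of 0 allows a level of up to 0.0915 to 0.149 CPM in the heat libraries and 0.131 to 0.200 CPM in the control libraries, taking 3 reads as the limit for counting error only. STAG3 (chromosome 3, 8175908 to 8211898) had 21, 19 and 13 reads in heat 1 to 3 and 21, 8 and 6 reads in control 1 to 3. Its levels of 0.775 ± 0.338 CPM in heat and 0.682 ± 0.622 CPM in control overlapped (SD, n = 3 each; log2 fold change 0.21 ± 0.73, 95% interval -1.48 to 1.90, edgeR adjusted p = 0.859). The sign of that difference changed with the libraries kept.

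Other genes of the synaptonemal complex and the meiotic axis were at low counts too. Of 12 listed, 10 were matched and 3 had enough reads to be tested. None of the 3 passed in edgeR (2 at an unadjusted p below 0.05, as were 33.9% of all tested genes). DESeq2 called 1, higher in heat, where 2118 of all 14242 genes were called higher, and limma-voom called 0. SYCP1, the transverse filament protein, had 0 reads in every heat library and 0, 2 and 1 reads in control 1 to 3. The central element gene SYCE3 and the axis gene HORMAD2 had 1 read each, both in heat 3. SMC1B, the meiotic partner of SMC3, had 0, 0 and 3 reads in heat and 1, 10 and 12 in control. The 3 tested genes had a median log2 fold change of 1.64, where the median of all tested genes was 0.05. Without heat 3 edgeR called all 3 higher, where 2817 of all 15325 genes were called higher and 2713 lower. It also called all 3 higher without control 1 and heat 3, where 6285 of 15251 genes were called higher and 5857 lower. Leaving out any other 1 library called none of them.

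REC8, the meiotic kleisin, was at 9.66, 12.6 and 1.04 CPM in heat 1 to 3, against 2.40, 1.92 and 1.73 CPM in control 1 to 3. Heat 3 was the lowest of all libraries, so the groups overlapped although the mean was higher in heat (log2 fold change 1.94 ± 0.79, edgeR adjusted p = 0.128). HORMAD1, a HORMA domain protein of the axis, was likewise high in heat 1 and 2 (2.64 and 3.20 CPM) and not in heat 3 (0.580 CPM), against 0.400, 1.13 and 0.495 CPM in control (edgeR adjusted p = 0.159). The groups of HORMAD1 overlapped too.

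Most markers that define the oocyte had few or no reads, with GDF9 and KIT as exceptions. Of 14 listed oocyte and germ cell markers 12 were matched, and 6 of these, among them the zona pellucida genes ZP2, ZP3 and ZP4, had 0 reads in all libraries, while 3 more (BMP15, NOBOX and NLRP5) had under 10 reads over the 6 libraries. The summed level of the list was 38.9 to 206 CPM in heat and 38.3 to 97.5 CPM in control, most of it KIT, a receptor that is not restricted to germ cells. GDF9, an oocyte growth factor gene, was the only 1 of the 3 tested markers that passed, where 6.71% of all tested genes were called higher. It was at 15.7 ± 5.47 CPM in heat and 5.89 ± 0.675 CPM in control (edgeR adjusted p = 0.0477). That call was lost with 2 other scalings, with limma-voom and in the fits that dropped heat 1, heat 2, control 2 or control 3 or summed the near-identical libraries.

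Markers of leukocytes and of stroma differed between libraries as well. All 11 leukocyte markers were matched, and CD3E had 0 reads throughout. Of the 3 tested 1 was called lower in heat (LYZ, with overlapping groups, edgeR adjusted p = 0.0447), where 4.32% of all tested genes were. Their sum was 1.65 to 6.37 CPM in heat and 3.67, 34.8 and 69.2 CPM in control 1 to 3. The LYZ call was lost with limma-voom, with the replicate block, with the near-identical libraries summed and without any 1 library other than control 1. Without control 1 the test called 4 of 7 tested markers lower, where 1901 of all 15407 genes were called lower and 3021 higher. The sum of the 11 stromal and theca markers, of which INSL3 had 0 reads, was 36992 to 91355 CPM in heat and 64607, 12948 and 12326 CPM in control 1 to 3. None of its 8 tested genes passed in edgeR (0 at an unadjusted p below 0.05), DESeq2 or limma-voom. However, edgeR called 6 higher in heat without control 1 and 3 higher with the replicate number as a block. Over all genes those fits called 3021 of 15407 and 2105 of 14242 higher. The part of leukocytes, stroma or theca in the values of SYCP2 was not tested.

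The somatic cohesin genes were all well detected, and 2 of the 5 passed the test. STAG2 and SMC3 fell in heat. They were the only ones called among the 6 tested genes other than SYCP2, where 4.32% of all tested genes were called lower, 6.71% higher and 11.0% in either direction. Over all genes 956 were higher and 615 lower, and 1573 higher and 413 lower when libraries were scaled by their totals alone, a scaling that moved the median log2 fold change of all genes from 0.05 to 0.17.

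STAG2, on the X chromosome at 101476117 to 101617405, encodes the STAG subunit that is mutually exclusive with STAG1 in the ring. It had 60.7, 61.0 and 79.0 CPM in heat 1 to 3, against 140, 196 and 174 CPM in control 1 to 3. The groups did not overlap, and heat 3 was the highest of the heat libraries. Its log2 fold change was -1.34 ± 0.31 (SE; 95% interval -2.05 to -0.64; edgeR adjusted p = 0.0393).

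SMC3 (chromosome 14, 120969629 to 121008924), an ATPase arm of the ring, was at 87.2, 84.7 and 123 CPM in heat 1 to 3, against 280, 280 and 214 CPM in control 1 to 3. Here too every heat library lay below every control library. Its log2 fold change was -1.39 ± 0.33 (SE; 95% interval -2.14 to -0.63; edgeR adjusted p = 0.0414). Both calls stood close to the threshold and were lost when libraries were scaled by their totals alone, when no low-count filter was used, and in fits that left out heat 1, heat 2, control 2 or control 3 or summed the near-identical libraries. The log2 fold change lay between -1.63 and -1.23 for STAG2 and between -1.60 and -1.25 for SMC3 over all alternatives.

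STAG1 and RAD21 had lower values in every heat library but did not pass in edgeR, which does not show that they were unchanged. STAG1 (chromosome 13, 77321872 to 77863533) was at 25.3, 27.0 and 33.2 CPM in heat 1 to 3, against 38.1, 66.0 and 52.8 CPM in control 1 to 3, where the 95% interval of the log2 fold change (-0.87 ± 0.32) was -1.60 to -0.14 (edgeR adjusted p = 0.0990). RAD21, the mitotic kleisin on chromosome 4 at 21772821 to 21802453, was at 84.1, 70.8 and 151 CPM in heat 1 to 3, against 152, 200 and 185 CPM in control 1 to 3. Heat 3 and control 1 nearly met for RAD21 (log2 fold change -0.81 ± 0.37, 95% interval -1.68 to 0.06, edgeR adjusted p = 0.168). RAD21 passed without heat 3 (edgeR adjusted p = 0.0175), and STAG1 passed without heat 3 and without control 1 (edgeR adjusted p = 0.0445 and 0.0249). The fit without heat 3 called 5530 of all 15325 genes, and that without control 1 called 4922 of 15407. With all 6 libraries DESeq2 called STAG1 (DESeq2 adjusted p = 0.0319) and not RAD21 (0.0785), where it called 3910 of all 14242 genes. Separation of the groups in this direction was seen for 4 of the 5 somatic subunits and for 16.8% of all tested genes, and separation in the other direction for 20.9%.

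SMC1A (X chromosome, 46143738 to 46202187), the other ATPase arm, overlapped between the groups. It had 130, 136 and 99.4 CPM in heat 1 to 3, against 198, 110 and 99.97 CPM in control 1 to 3. Control 1 was the highest of all libraries and stood apart from the other controls. The log2 fold change was -0.16 ± 0.37 (95% interval -1.01 to 0.68; edgeR adjusted p = 0.774), and it changed sign without control 1 and when libraries were scaled by their totals alone.

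**Figure D2:**
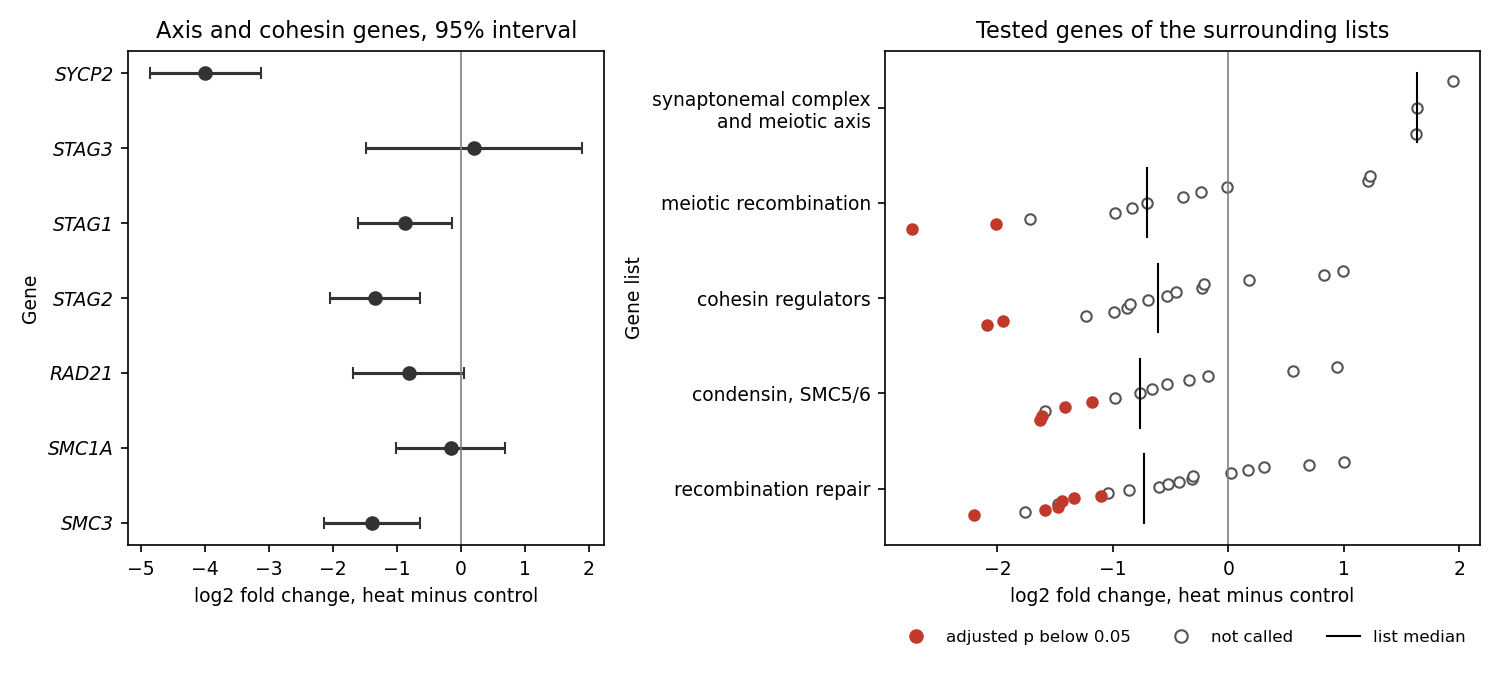
Left, log2 fold change (heat minus control) of the 7 tested genes with 95% intervals. SYCP2 is shown as a description, and its interval does not allow for its choice. Right, log2 fold change of each tested gene in 5 surrounding lists, with filled points for genes called by edgeR and vertical bars at list medians, which lay between -0.77 and -0.61 in 4 lists and at 1.64 in the list of the synaptonemal complex and meiotic axis.

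Ratios of read counts within a library do not depend on any scaling between libraries. For each 100 reads of the 5 somatic cohesin genes there were 2.88, 3.66 and 2.65 SYCP2 reads in heat 1 to 3 and 16.5, 26.6 and 33.5 in control 1 to 3. These ratios restate, without a scaling factor, the values by which SYCP2 was chosen. They are not corrected for transcript length and say nothing of the level of one gene against another.

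Proportions among the cohesin subunits were compared in the same way. There were 2.39, 2.26 and 2.38 STAG2 reads per STAG1 read in heat 1 to 3 and 3.67, 2.96 and 3.30 in control 1 to 3. The heat ratios lay close together and below every control. The difference was -0.49 on the log2 scale, with p = 0.10 in a two-sided exact permutation test over samples, the smallest value that 3 against 3 allows, and 0.20 after adjustment over the 4 ratios tested. The sources used here do not say how reads that match both STAG genes were counted.

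SMC3 reads per SMC1A read, the pair that forms the ATPase arms, were 0.670, 0.624 and 1.24 in heat 1 to 3 and 1.41, 2.54 and 2.14 in control 1 to 3. These did not overlap either (log2 difference -1.30, exact permutation p = 0.10, adjusted 0.20). RAD21 and STAG2 per SMC1A read overlapped between the groups (log2 differences of -0.78 and -1.24, each with an exact permutation p of 0.20).

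**Figure D3:**
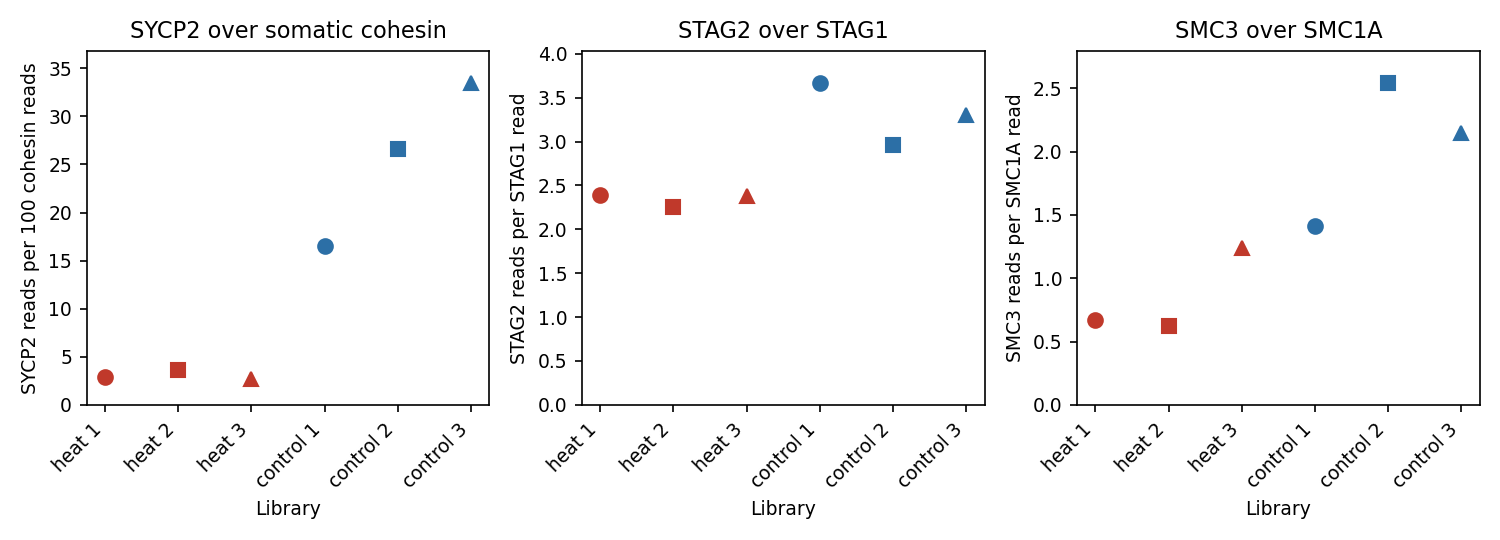
Read count ratios within each library, heat libraries in red and control libraries in blue, with each axis starting at 0. The SYCP2 ratio lay between 2.65 and 3.66 in heat and between 16.5 and 33.5 in control, and the STAG2 to STAG1 ratio between 2.26 and 2.39 in heat and between 2.96 and 3.67 in control.

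Genes that load, release, acetylate and protect cohesin were measured next to it. Of 16 listed, 14 were matched and tested. The test called 2 lower, where 4.32% of all tested genes were, and 0 higher, and 12 did not pass. DESeq2 called 6 lower and 1 higher, where 1792 and 2118 of all 14242 genes were. Limma-voom called 3 lower and 0 higher, where 732 and 1055 were. The pair that edgeR called lower was SGO1 and SGO2, the shugoshins, which protect centromeric cohesin from cleavage. SGO2 was at 6.08, 7.57 and 10.3 CPM in heat 1 to 3, against 41.5, 33.5 and 27.1 CPM in control 1 to 3 (log2 fold change -2.09 ± 0.34, edgeR adjusted p = 0.0276). SGO1 was at 2.72 ± 0.678 CPM in heat and 10.5 ± 2.14 CPM in control (log2 fold change -1.95 ± 0.35, edgeR adjusted p = 0.0298). The median log2 fold change of the list was -0.61, against 0.05 over all tested genes, and 9 of its 14 genes had every heat library below every control, as had 16.8% of all tested genes.

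The loader is a pair of proteins. NIPBL, the loading factor, was at 103 ± 11.7 CPM in heat and 204 ± 27.2 CPM in control, and MAU2, its partner, at 32.2 ± 9.47 CPM in heat and 16.2 ± 1.19 CPM in control (SD, n = 3 each). The groups of each gene did not overlap, but neither passed (log2 fold changes -0.99 ± 0.30 and 1.00 ± 0.32, edgeR adjusted p = 0.0653 and 0.0759). Both were named after their values were seen.

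The next list held condensin and SMC5/6 genes, which build the other chromosomal SMC complexes, and SMCHD1, which belongs to neither. Of 15 listed, 13 were tested, 4 fell and 9 did not pass, where 4.32% of all tested genes were called lower. The count was 2 with library totals alone and 2 with no low-count filter, where 413 of 14242 and 850 of 25766 genes were called lower. Without control 2, control 3, heat 1 or heat 2 edgeR called 0 lower (4 to 7 at an unadjusted p below 0.05). SMC2 and SMC4, the ATPase pair of condensin, were at 66.0 ± 28.4 and 87.7 ± 10.7 CPM in heat and at 202 ± 14.7 and 235 ± 87.7 CPM in control. SMC6 was at 54.4 ± 20.5 CPM in heat and 169 ± 20.5 CPM in control, and SMCHD1, a noncanonical SMC protein of X inactivation, at 68.1 ± 3.08 CPM in heat and 155 ± 30.7 CPM in control. Their log2 fold changes lay between -1.63 and -1.18, with edgeR adjusted p-values between 0.0381 and 0.0483. Of the 13 tested genes 5 had every heat library below every control, as had 16.8% of all tested genes. The condensin gene NCAPH2 was the only 1 with every heat library above (log2 fold change 0.94 ± 0.43, edgeR adjusted p = 0.167), as had 20.9% of all.

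Of 24 listed genes of meiotic recombination and telomere attachment 21 were matched, 11 were tested, 2 fell and 9 did not pass, where 4.32% of all tested genes were called lower. HFM1, a DNA helicase of meiotic crossing over, was at 1.39, 1.44 and 1.71 CPM in heat 1 to 3, against 7.67, 12.3 and 10.5 CPM in control 1 to 3 (log2 fold change -2.74 ± 0.35, edgeR adjusted p = 0.0266). MEIOB, a meiotic factor that binds single-stranded DNA, was at 5.03, 4.83 and 4.61 CPM in heat and at 29.6, 15.4 and 13.6 CPM in control (log2 fold change -2.02 ± 0.38, edgeR adjusted p = 0.0315). Control 1 was the highest library for MEIOB and the lowest control for SYCP2 and HFM1.

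Repair genes of homologous recombination were all tested, and the test called 6 of 20 lower, 0 higher and left 14 uncalled, where 4.32% of all tested genes were called lower and 6.71% higher. The count was 3 lower with library totals alone and 10 lower with DESeq2, where 413 and 1792 of all 14242 genes were called lower. Without control 2, control 3, heat 1 or heat 2 edgeR called 0 lower (9 at an unadjusted p below 0.05 in each). RAD50 and MRE11, which together hold and trim broken ends, were at 38.1 ± 11.9 and 9.58 ± 3.93 CPM in heat and at 175 ± 77.3 and 28.8 ± 5.58 CPM in control (edgeR adjusted p = 0.0325 and 0.0414). BRCA2 and BRCA1, which act in loading the recombinase, were at 19.5 ± 2.46 and 13.4 ± 3.14 CPM in heat and at 54.3 ± 12.2 and 36.4 ± 4.79 CPM in control (edgeR adjusted p = 0.0341 and 0.0365). The list median was -0.73 on the log2 scale.

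These counts rest on the libraries kept. Without control 2 or control 3 edgeR called 0 genes of all tested, with 3164 and 3303 at an unadjusted p below 0.05, and without heat 1 or heat 2 it called 7 and 6, none of them in these lists. Without control 1 it called lower 4 of 14 cohesin regulators and 5 of 13 condensin and SMC5/6 genes. It also called lower 3 of 11 genes of meiotic recombination and 9 of 20 repair genes. Of all 15407 genes tested in that fit 1901 were called lower and 3021 higher. Without heat 3 the list counts were 7, 5, 3 and 10 lower, where 2713 of all 15325 genes were called lower and 2817 higher. Each of these lists had at most 1 gene called higher in either fit.

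The genes with the profile over the 6 libraries most like that of SYCP2 were CCL2, IL1A, WSB1, PARP14 and TTC39B. Likeness was the root mean square difference between log2 CPM profiles, each centred on its own mean, over 9747 genes with a symbol and a mean log2 CPM of at least 1. The measure grows with any gap in size of change, so it is small only for genes with a difference about as large as that of SYCP2, and genes at very low counts were not ranked. The nearest was CCL2, a chemokine that attracts monocytes, with a difference of 0.45. It was followed by IL1A, a cytokine (0.46), WSB1, a substrate receptor of a ubiquitin ligase (0.46), PARP14, an ADP-ribosyltransferase (0.53), and TTC39B (0.58).

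WSB1 was at 233, 242 and 134 CPM in heat 1 to 3, against 2465, 2175 and 2445 CPM in control 1 to 3. IL1A was at 25.1, 27.3 and 26.7 CPM in heat and at 147, 273 and 253 CPM in control, so control 1 was the lowest control as for SYCP2. The 5 somatic cohesin genes, whose changes were smaller in size, differed from the SYCP2 profile by 1.32 to 2.01.

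**Figure D4:**
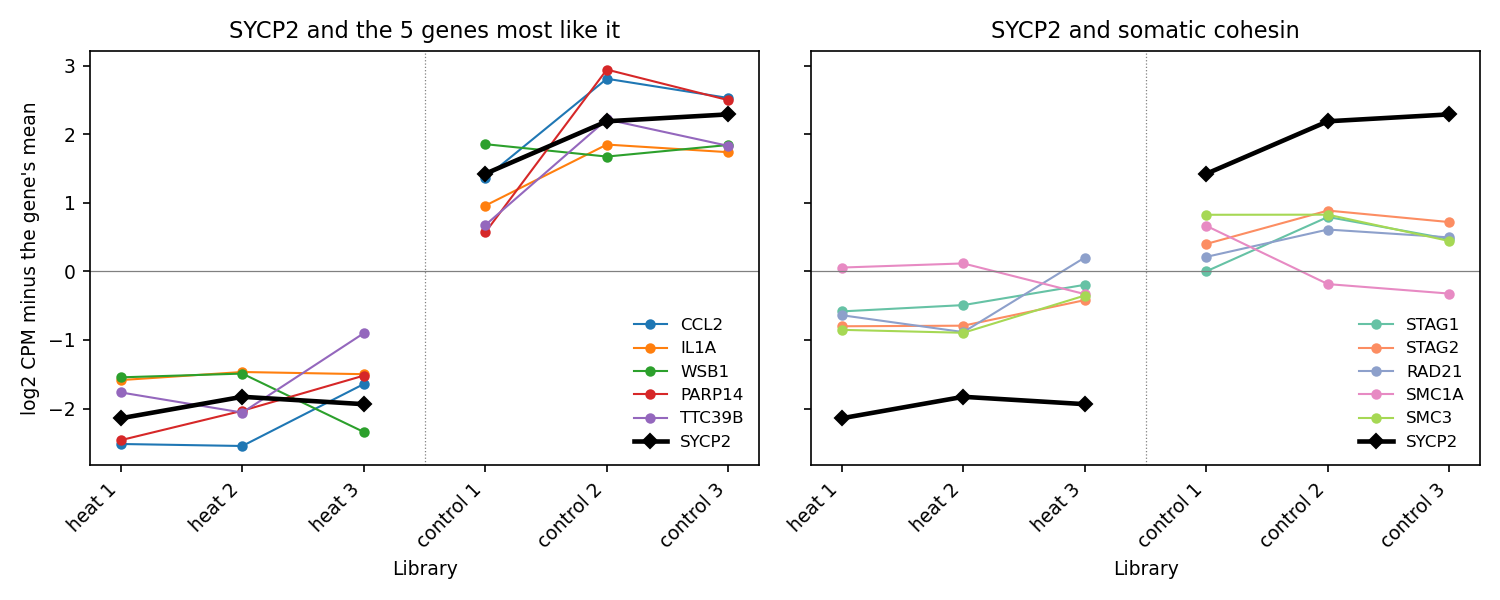
Log2 CPM of each gene minus its mean over the 6 libraries, heat libraries left of the dotted line and control libraries right of it, with lines joining the libraries of a group only to mark the gene. CCL2, IL1A, WSB1, PARP14 and TTC39B differed from SYCP2 (black) by 0.45 to 0.58, and the somatic cohesin genes, with smaller changes, by 1.32 to 2.01.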

How the data were processed

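The raw read counts analysed here are those the authors deposited, 1 column per library and 1 row per Ensembl gene. Per the submitters' processing notes, FastQC 0.11.4, Trim Galore and STAR were used with Sscrofa11.1. No source used here gives the counting tool or the annotation release. Their normalized table was not used. Symbols came from a reference table of 15623 identifiers, and coordinates from RefSeq genes of the same symbol and build. Transcript lengths were not used, so levels are not compared between genes.

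Genes passing edgeR's filterByExpr (minimum count 10) were tested by edgeR 4.0.16 (R 4.3.3), with TMM factors, robust quasi-likelihood F tests, two-sided, and Benjamini-Hochberg adjustment over 14242 genes, called below 0.05. The SE is the size of the log2 fold change over the root of its F value. Log2 CPM used a prior count of 2. The test was checked on simulated data, where it missed most of the smaller changes put in. A gene that did not pass is therefore not shown to be unchanged.

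The members and lists were chosen with earlier results of these data known. All members are named, up to 4 called genes per list by size of change (or the 2 with the highest mean), the 5 genes nearest in profile and the neighbours of SYCP2. Other genes named were chosen after their values were seen. DESeq2 1.42.0, limma-voom (limma 3.58.1), other scalings and filters, a replicate block and left-out libraries were tried.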

Additional observations from a re-analysis of the deposited data

How the results depend on the processing

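The SYCP2 log2 fold change lay between -4.25 and -3.86 over all 16 alternatives. The count of genes called, 1571 with all libraries, was 2457 with no low-count filter, 928 with at least 10 CPM in 3 samples, 3910 with DESeq2, 3406 with the replicate number as a block, 12142 without control 1 and heat 3, and 2 with the near-identical libraries summed. Leaving out 1 library gave 0 to 5530 genes. Of the members other than SYCP2, 2 were called, against 0 with library totals alone, 0 with no low-count filter, 0 with the near-identical libraries summed and 6 without control 1 and heat 3, a fit of 2 near-identical libraries per group. At an unadjusted p below 0.05 edgeR had 2, 3, 0 and 6 members in these fits. Leaving out 1 library gave 0 to 4 members. DESeq2 called 3 and limma-voom 2, where they called 3910 and 1787 of all 14242 genes. SMC1A changed sign with library totals alone (0.0069), without control 1 (0.19) and without control 1 and heat 3 (0.32). STAG3 changed sign without control 2 (-0.15), control 3 (-0.19) or heat 1 (-0.08) and with the near-identical libraries summed (-0.32), and the filter of 10 CPM left it untested. Leaving out 1 library gave -0.37 to 0.19 for SMC1A and -0.19 to 1.21 for STAG3. The cause was not tested. Same-numbered libraries had deviations that correlated at 0.30, -0.23 and 0.22 for numbers 1, 2 and 3. With 3 libraries per group these values cannot show whether the numbers pair the samples. The replicate block left 2 members called. A prior count of 0.5 gave the same 5 genes nearest to SYCP2. STAG3, with 6 to 21 reads a library, is limited by depth.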
